A study of Mus musculus with 15 samples.

Results

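The collagen chains described here are the mouse collagen genes of joint tissue other than the cartilage collagens Col2a1, Col9a and Col11a. They were chosen by name: a probe set counted when its only gene symbol in the platform annotation was Col, a number, a and a number, and each gene was represented by its brightest probe set over 15 arrays. The rule found 36 genes of the 18193 genes named on the array, and it left out 6 cartilage collagen genes. The 36 chains were sorted into 8 fibrillar chains, 6 basement membrane chains (all of type IV) and 22 other chains. Collagen-induced arthritis (CIA) is a mouse model of inflammatory arthritis, and RNA of knee joint synovium, the lining of the joint, was measured on 1 array per sample. The groups were healthy naive mice and CIA mice with no, mild, moderate or severe joint swelling, with 3 arrays each. The treatment described for CIA was 100 µg of type II collagen in FCA (an adjuvant) on day 0, boosted i. p. with the same amount on day 21. The same text stands with the naive samples and was read as written for the whole series. No source used here gives strain, genotype, sex or age. The labels do not tie replicates to separate animals, and p-values rest on a spread between arrays that may be only technical.

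A collagen molecule is wound from 3 chains, which are hydroxylated and folded in the endoplasmic reticulum, secreted, trimmed and cross-linked. Fibrillar collagens of types I, III and V form the cables of connective tissue, and type V nucleates fibrils and limits their width. Type IV forms the meshwork of basement membranes around vessels, nerves, fat and muscle. The other chains build beaded filaments (type VI), sit on fibrils as fibril-associated collagens with interrupted helices (FACITs, among them types XII, XIV and XVI), form short networks (types VIII and X), anchor epithelia (type VII), span cell membranes (types XIII, XVII, XXIII and XXV) or carry endostatin-like ends in basement membrane zones (types XV and XVIII). In joints these chains come mainly from fibroblasts, with type IV also from endothelium and the cells around it. The rule kept Col10a1, the chain of hypertrophic cartilage, and Col27a1, best known from developing cartilage. The set is therefore not strictly free of cartilage chains. Col10a1 lay at signals of 1.4 to 5.6 on every array and was not tested, whereas Col27a1 was tested.

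Promoter sequence is shown for 5 places chosen after the expression values were seen: a chain that rose strongly (Col5a1), a chain whose probe sets gave unequal changes (Col1a2), the one chain with an AP-1 match (Col6a1), a chain that fell (Col7a1), and the common start of Col4a1 and Col4a2, which moved together. The first 4 are the 150 bases just before the annotated start, on the gene's own strand, and capitals mark matches to the motifs searched. All come from RefSeq on GRCm38.p6.
Col5a1 (chr2:27886275-27886424, plus strand): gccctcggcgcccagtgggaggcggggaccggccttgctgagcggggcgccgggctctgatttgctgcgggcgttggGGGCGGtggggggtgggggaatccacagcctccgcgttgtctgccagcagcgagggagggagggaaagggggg
Col1a2 (chr6:4505468-4505617, plus strand): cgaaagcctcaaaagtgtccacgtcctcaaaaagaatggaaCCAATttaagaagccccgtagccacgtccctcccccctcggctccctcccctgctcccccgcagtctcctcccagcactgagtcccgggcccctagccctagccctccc
Col6a1 (chr10:76726045-76726194, minus strand): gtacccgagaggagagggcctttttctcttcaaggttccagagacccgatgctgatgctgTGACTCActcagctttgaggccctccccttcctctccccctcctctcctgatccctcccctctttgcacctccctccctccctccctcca
Col7a1 (chr9:108953436-108953585, plus strand): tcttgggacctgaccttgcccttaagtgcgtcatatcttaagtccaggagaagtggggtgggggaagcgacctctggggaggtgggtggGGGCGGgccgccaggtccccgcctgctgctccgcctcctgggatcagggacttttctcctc
Col4a1 and Col4a2 (chr8:11312801-11312830, plus strand): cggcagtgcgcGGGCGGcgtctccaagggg
The annotated starts of Col4a1 (11312826, minus strand) and Col4a2 (11312805, plus strand) lie 21 bases apart on chromosome 8, so the 30 bases printed hold both. Windows from 250 bases before to 50 bases after the start were held for 29 of the 36 chains. Both strands were searched, and matches of different motifs could overlap. The GC box GGGCGG was in 18 of these 29 windows (62.1%), against 35.7% of the 32851 windows of all genes. The CCAAT box was in 11 (37.9% against 37.4%), TATAAA in 4 (13.8% against 13.6%), the AP-1 site TGANTCA in 1 (3.4% against 7.81%) and the E-box CANNTG, not capitalised above, in 15 (51.7% against 72.3%). These shares are descriptions, and no window was tested for binding here.

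Of the 36 chains, 29 passed the filter on low signals (above their own array's 40th percentile on at least 3 of 15 arrays): 8 fibrillar, 5 basement membrane and 16 other. The 7 that did not were Col10a1, Col17a1, Col25a1, Col26a1, Col4a4, Col6a4 and Col6a5, with signals between 0.9 and 57.4. Of the 29, 25 were above that percentile on all naive arrays. Col13a1 and Col23a1, which span the cell membrane, were above it in swollen groups only, so that each could pass only through groups where it was high. Their rises in the counts below were thereby favoured by the filter. Col24a1 and Col4a6 were above it on some naive arrays. Signals are linear and in arbitrary array units, and their medians ran from 36.3 to 47.6 per array. Differences are given as log2 fold changes of signal plus 16, which understate the change of dim genes, with the SE of the limma fit over all 15 arrays. A chain is said to rise or fall when its Benjamini-Hochberg adjusted p over all 14314 genes tested was under 0.05.

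The arrays of whole synovium also hold other tissue. Summed signals of 12 skeletal muscle genes were 106700 to 125000 in naive, 123300 to 127300 in unswollen CIA joints, 78780 to 84800 in mild, 55540 to 90600 in moderate and 85270 to 120400 in severe swelling. The mild and moderate sums all lay below the naive ones. The counts that follow stand against 32.3% of all genes tested that rose and 22.9% that fell between naive and severe synovium. Fibroblast genes rose in 9 of 9 cases between naive and severe swelling, with summed signals of 11990 to 13390 against 27590 to 40730; Dcn, Lum and Dpt are in that list and among the fibril partners below. Chondrocyte genes rose in 6 of 7 tested cases (sums 806 to 926 against 4122 to 6516), with Hapln1 and Cnmd below the filter. Most of that sum was Comp, at a mean of 661 of 868 in naive and 3982 of 5334 in severe arrays. Macrophage genes rose in 6 of 6 cases (1663 to 1901 against 5500 to 7648), endothelial genes in 6 of 9 (1944 to 2053 against 2656 to 3205) and pericyte genes in 2 of 7. Adipocyte genes fell in 4 of 5 tested cases, nerve genes in 3 of 4, keratinocyte genes in 2 of 5 and osteoblast genes in 1 of 3. In such bulk RNA, fewer cells of a type and less RNA per cell cannot be told apart, and the part these shifts play in the collagen values was not tested. On the first principal component (70.3% of the variance) mild replicate 2 stood apart from the other mild arrays, at -7.42 against 18.7 and 36.0. The ratio of 3′ to 5′ beta-actin signal, a sign of RNA quality, was 0.89 to 1.03 in naive and 1.21 to 1.27 in severe arrays. The same ratio for Gapdh overlapped, at 0.826 to 0.888 in naive and 0.825 to 0.959 in severe arrays. The part of either ratio was not tested.

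Between severely swollen and naive synovium, 22 of the 29 tested chains rose and 2 fell. The rising chains were 7 of 8 fibrillar, 13 of 16 other and 2 of 5 type IV chains (Col4a1 and Col4a2), and the difference between classes was not tested. Over all genes tested, 32.3% rose and 22.9% fell. The median change of the 29 chains was 1.81 on the log2 scale, against 0.11 over all genes tested; over all 36 chains without the filter it was 0.98. No severe array overlapped a naive array in any of the 22 chains that rose, and severe arrays were above every naive array in 23 of the 29 and below in 2, against 36.1% and 26.1% of all genes tested. The 22 and the 23 include Col13a1 and Col23a1, which could pass the filter only through swollen groups. On the brightest probe sets, 11 chains rose by over 2 log2 units: Col12a1, Col14a1, Col16a1, Col18a1, Col1a1, Col23a1, Col27a1, Col5a1, Col5a2, Col8a1 and Col8a2. Other tested probe sets rose by less than 2 for Col23a1 (1.25 and 1.73), Col8a1 (1.72 and 1.30), Col27a1 (1.80) and Col1a1 (1.99). Those of the other listed chains that had any rose by more than 2, as did those of Col1a2 and Col3a1, which are not listed. The 5 chains that neither rose nor fell were Col22a1, Col24a1, Col4a3, Col4a5 and Col4a6.

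**Figure D1:**
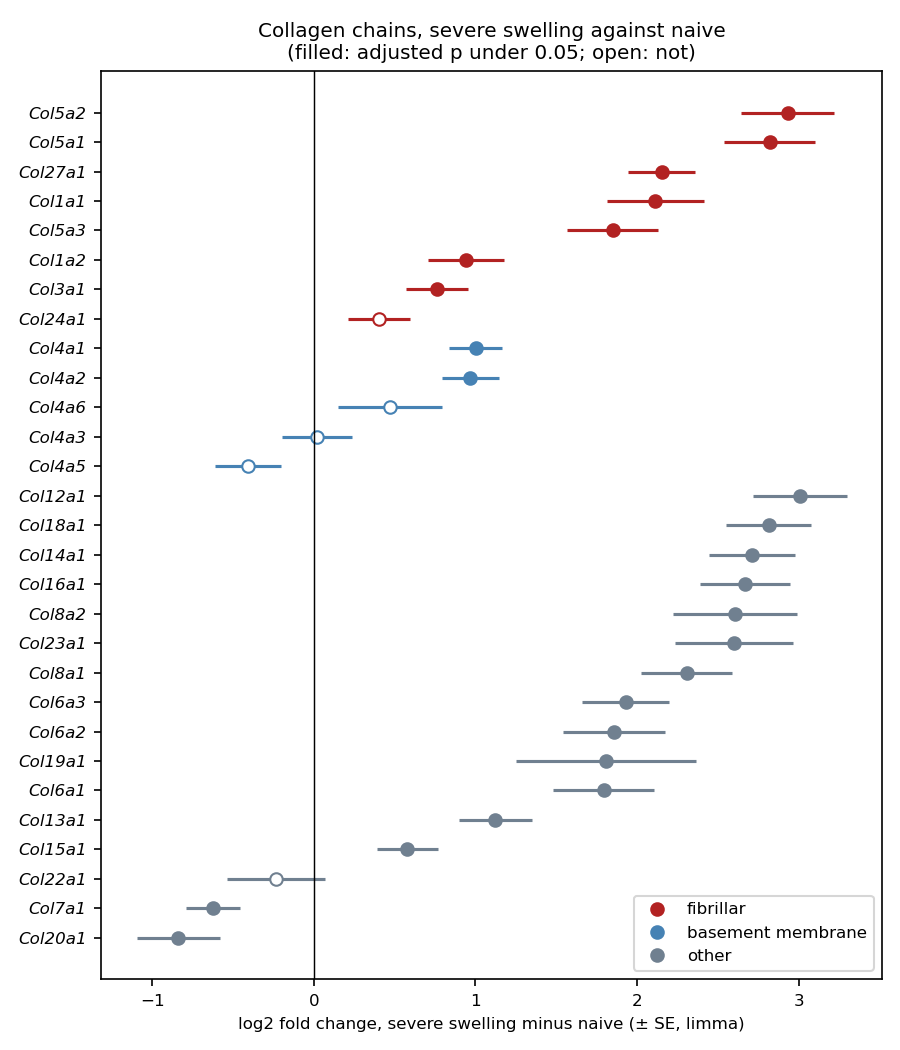
Log2 fold change of each of the 29 tested collagen chains between severely swollen and naive synovium (x axis, signal plus 16, with limma SE as bars, 3 arrays a group), sorted within fibrillar, basement membrane and other chains; filled points passed the adjusted p threshold of 0.05. Changes run from -0.84 (Col20a1) to 3.01 (Col12a1), and 3 of the 5 basement membrane chains have open points.

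Among fibrillar chains, 7 of 8 rose in severe swelling, with a class median of 1.98. Col5a1 and Col5a2, the main chains of type V, which nucleates and thins fibrils, had the largest changes of the class on the brightest probe sets. Col5a1 had signals of 616, 754 and 627 in naive synovium, 558, 554 and 390.5 in unswollen CIA joints, 2409, 1320.1 and 3562.5 in mild, 3038, 4719 and 3624 in moderate and 5226, 3669 and 5720 in severe swelling. Its swollen arrays were all above the naive and unswollen ones, and mild replicate 2 was the lowest of the swollen arrays. The rise from naive to severe was 2.82 ± 0.28 (SE, adjusted p = 9.49e-07 by limma). Its partner Col5a2 had signals of 1031, 1087 and 922 in naive, 1064, 1383 and 657 in unswollen CIA joints, 4752, 2516 and 5860 in mild, 4632.5, 6984 and 6288 in moderate and 8215, 6211 and 9378 in severe swelling. It rose by 2.93 ± 0.29 (adjusted p = 8.74e-07), again with no overlap between swollen and other arrays. The third type V chain, Col5a3, had 539.5, 599 and 521.5 in naive, 272.5, 245 and 205 in unswollen CIA joints, 967.5, 498 and 1183.5 in mild, 1363, 2272 and 1435 in moderate and 2610.4, 1408 and 2278.5 in severe swelling. All its unswollen arrays were below the naive ones and mild replicate 2 was below them too, while moderate and severe arrays were above. Col5a3 rose by 1.85 ± 0.28 in severe swelling (adjusted p = 4.36e-05), but its other tested probe set, a dim one with a mean signal of 26.3, gave -0.21 (adjusted p = 0.609).

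Col27a1, a fibrillar chain best known from developing cartilage, had signals of 95.9, 122 and 116 in naive, 113, 170.1 and 92.8 in unswollen CIA joints, 288.5, 316 and 382.5 in mild, 333, 490.3 and 503 in moderate and 692, 468 and 508 in severe swelling. It rose by 2.15 ± 0.21 in severe swelling (adjusted p = 7.69e-07), and its swollen arrays did not overlap the others. Col1a1, the main chain of type I collagen, had 2133, 2275 and 2636 in naive, 1032, 2165 and 807 in unswollen CIA joints, 6457, 4608 and 6691 in mild, 5121, 8946 and 6611 in moderate and 10370, 7699.8 and 13191 in severe swelling. It rose by 2.11 ± 0.30 in severe swelling (adjusted p = 2.34e-05), with every swollen array above every other array. Col24a1, a fibrillar chain of bone and cornea, changed by 0.40 ± 0.19 in severe swelling (adjusted p = 0.0899). It did rise in moderate swelling against naive, by 0.85 ± 0.19 (adjusted p = 0.00154).

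Col1a2, the second chain of type I, and Col3a1, the chain of type III collagen of soft tissue, rose less on their brightest probe sets, by 0.94 ± 0.24 (adjusted p = 0.00296) and 0.76 ± 0.19 (adjusted p = 0.0029). Col1a2 had mean signals of 6068 ± 211 (SD, n = 3) in naive and 11920 ± 3088 in severe swelling, and Col3a1 of 6672 ± 269 and 11470 ± 2325. Other probe sets of the same genes, looked at after the values were seen, changed more. For Col1a2 they rose by 2.22 (from a mean signal of 2047 to 9701) and by 2.79 (from 80.5 to 678), and for Col3a1 by 3.21 (from 646 to 6141). The adjusted p-values over all 25997 probe sets fitted by limma were 2.02e-06, 4.98e-07 and 2.81e-07. The 2 probe sets of Col1a1 gave 2.11 and 1.99. The brightest probe set of Col1a2 was already at the 99.55th percentile or above of the naive arrays' signals, and that of Col3a1 at the 99.69th or above, where the highest signal on any array was 6739 to 15365. The part that this nearness to the top of the scale plays was not tested. Of the 18 chains with another tested probe set, all others gave the same call in severe swelling for 16, and none gave the opposite call.

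**Figure D2:**
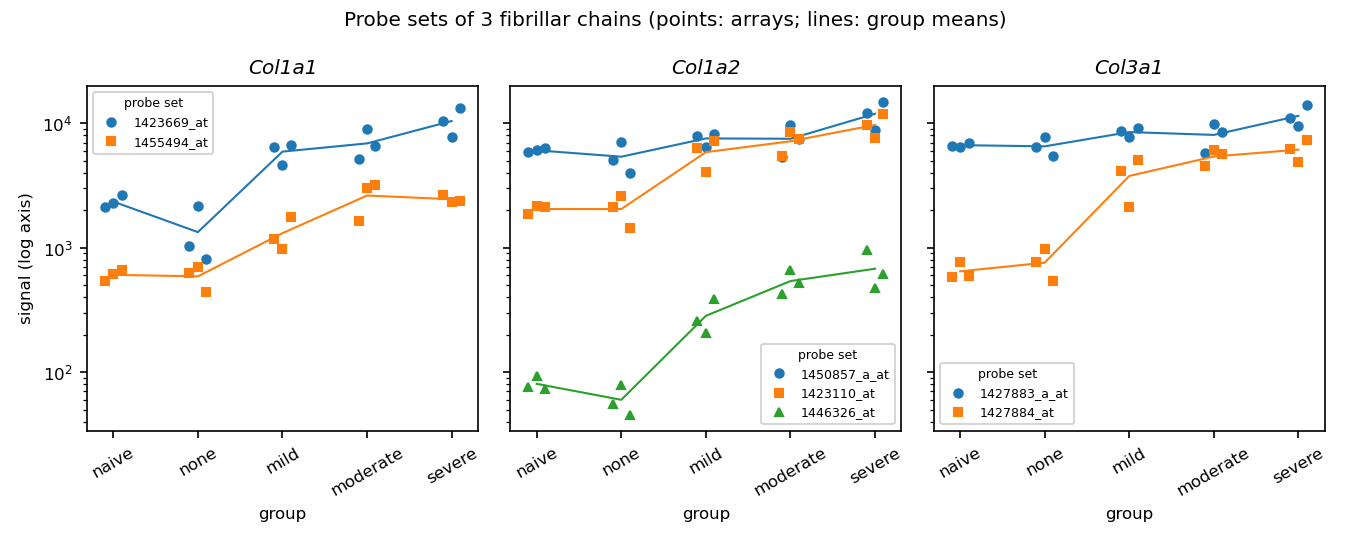
Signal (log axis) of every tested probe set of Col1a1, Col1a2 and Col3a1 by group, with 1 point per array and lines through the group means of 3 arrays. The brightest probe sets of Col1a2 (means 6068 in naive, 11920 in severe) and Col3a1 (6672 and 11470) rise less steeply than the dimmer ones (for Col3a1, 646 and 6141).

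Among the type IV chains of basement membranes, 2 of 5 tested rose in severe swelling, with a class median of 0.47. That median was 0.245 over all 6 type IV chains without the filter, and ran from 0.18 to 0.73 with single arrays left out. Col4a1, a chain of the basement membranes of most tissues, had signals of 1875, 1791 and 2056 in naive, 1276, 1357 and 1067 in unswollen CIA joints, 2688, 1963 and 2712.5 in mild, 2982, 4364 and 3132 in moderate and 3905, 3473 and 4133 in severe swelling. Its partner Col4a2 had 957, 921 and 1019 in naive, 503, 638 and 453 in unswollen CIA joints, 1331, 931 and 1236 in mild, 1617.5, 2211 and 1512 in moderate and 2236, 1592 and 1933 in severe swelling. In both genes all unswollen arrays lay below the naive range, mild replicate 2 lay inside it, and moderate and severe arrays lay above it. Col4a1 rose by 1.001 ± 0.162 (adjusted p = 7.68e-05) and Col4a2 by 0.97 ± 0.18 (adjusted p = 0.000241) in severe swelling. Of the endothelial genes, 6 of 9 rose in severe swelling, by 0.42 (Esam) to 1.03 (Tie1). Cdh5 (0.35), Kdr (0.38) and Tek (-0.03) did not pass, and the median of the 9 was 0.495. Fibroblast genes rose in 9 of 9 cases, with a median of 2.45. The part of either list in the rise of Col4a1 and Col4a2 was not tested.

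The type IV chains of more restricted membranes were dim. Col4a3, known from kidney and lung, had 36.9, 34.6 and 36.4 in naive, 20.9, 15.1 and 26.5 in unswollen CIA joints, 21.8, 34.5 and 29.2 in mild, 15.3, 30.2 and 17.2 in moderate and 35.7, 28 and 47.9 in severe swelling. The severe arrays overlapped the naive ones, and the difference was 0.02 ± 0.22 (adjusted p = 0.956), with a sign that turned to -0.12 under quantile normalization and to -0.14 with array medians aligned. Col4a5, also found in smooth muscle and skin membranes, had 46.3, 71.1 and 48.4 in naive, 50.1, 31.8 and 31.2 in unswollen CIA joints, 48.1, 47.1 and 50 in mild, 51, 37.3 and 63.9 in moderate and 32.4, 33.1 and 46.9 in severe swelling. Its severe arrays overlapped the naive ones at 1 array, and it changed by -0.41 ± 0.21 (adjusted p = 0.104). It passed as lower under quantile normalization (-0.58, adjusted p = 0.0304) and with array medians aligned (-0.57, adjusted p = 0.0337). Col4a6 differed by 0.47 ± 0.32 (adjusted p = 0.229), and by 0.18 to 0.73 with single arrays left out. It passed as higher when scaled on hybridization controls (0.84, adjusted p = 0.0284).

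Among the other chains, 13 of 16 rose in severe swelling, 2 fell, and Col22a1, a FACIT of muscle and tendon junctions, did not pass (-0.23 ± 0.30, adjusted p = 0.543; 0.25 when scaled on hybridization controls). The class median was 1.89. The FACITs Col12a1, Col14a1 and Col16a1, which sit on fibril surfaces, were among the largest changes. Col12a1 had signals of 136, 142 and 121.5 in naive, 118, 117 and 84.2 in unswollen CIA joints, 883, 446.5 and 1486.5 in mild, 1399, 1439 and 1931 in moderate and 1255, 1274 and 1031 in severe swelling. It rose by 3.01 ± 0.29 in severe swelling (adjusted p = 7.34e-07). Its swollen arrays did not overlap the others, and the moderate arrays were all above the severe ones. Col14a1 had 429.9, 485 and 398 in naive, 530.4, 654.5 and 449.7 in unswollen CIA joints, 1947.5, 777 and 1719 in mild, 2618.5, 3623 and 3215 in moderate and 3236, 2341 and 3379.5 in severe swelling. Col16a1 had 149, 176.5 and 145 in naive, 114, 129.5 and 93.2 in unswollen CIA joints, 392, 221 and 681.5 in mild, 869.8, 1218 and 1016 in moderate and 1305, 867 and 1110.5 in severe swelling. In both, mild arrays lay between the naive and the moderate ones with no overlap. Col14a1 rose by 2.71 ± 0.27 (adjusted p = 8.14e-07) and Col16a1 by 2.67 ± 0.28 (adjusted p = 1.44e-06) between naive and severe synovium. Col19a1, a FACIT of muscle and brain, rose by 1.81 ± 0.56 (adjusted p = 0.0117) from widely spread severe arrays of 143, 432.5 and 63.7; without severe replicate 2 the change was 1.14 (adjusted p = 0.0721). As the mean of its probe sets it changed by 0.93 (adjusted p = 0.0589).

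Col18a1, whose end yields endostatin, had signals of 134, 134 and 111 in naive, 102, 159 and 97.4 in unswollen CIA joints, 430.5, 218.5 and 552 in mild, 727, 1077 and 837 in moderate and 1197, 826 and 961 in severe swelling. It rose by 2.82 ± 0.27 (adjusted p = 6.25e-07), with all swollen arrays above all others. The related Col15a1 rose by only 0.58 ± 0.19 (adjusted p = 0.0164). That call was lost without naive replicate 2 (adjusted p = 0.0508) and without severe replicate 1 (0.0692) or 3 (0.0549). Col8a1 and Col8a2, the chains of type VIII, a short network collagen of vessel walls, rose by 2.31 ± 0.28 (adjusted p = 5.81e-06) and 2.61 ± 0.38 (adjusted p = 3.25e-05). Col8a1 had signals of 122.5, 169 and 130.3 in naive, 187, 268 and 115.5 in unswollen CIA joints, 803, 402 and 919.8 in mild, 828, 841 and 1038 in moderate and 629, 765 and 884 in severe swelling. Col8a2 had 62, 78.5 and 36.5 in naive, 25.7, 61.1 and 33 in unswollen CIA joints, 145, 38.2 and 200.6 in mild, 385, 456 and 478 in moderate and 527.5, 393 and 377 in severe swelling. All swollen arrays of Col8a1 were above the rest, whereas mild replicate 2 of Col8a2 lay inside the naive and unswollen ranges.

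The 3 chains of type VI, which form the beaded filaments around cells, rose to similar extents. Col6a3, the largest of them, had signals of 1065, 1138 and 1099 in naive, 780.4, 1010.5 and 620.4 in unswollen CIA joints, 2715, 1358.5 and 3120.2 in mild, 2893, 4526 and 3579.7 in moderate and 4864, 3176 and 4915 in severe swelling. Every swollen array was above every other array. Col6a3 rose by 1.93 ± 0.27 (adjusted p = 1.99e-05), Col6a2 by 1.86 ± 0.32 and Col6a1 by 1.79 ± 0.31. The membrane-spanning Col23a1 rose by 2.60 ± 0.37 and Col13a1 by 1.12 ± 0.23, from mean naive signals of 11.4 ± 11.5 and 9.03 ± 6.22 (SD, n = 3), at which the pseudocount sets much of the size.

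Col7a1 and Col20a1 fell. Col7a1, which builds the anchoring fibrils beneath epithelia, had signals of 192.5, 171 and 205 in naive, 141, 167 and 191 in unswollen CIA joints, 111, 146 and 85.7 in mild, 108, 86 and 98.9 in moderate and 131, 114 and 107 in severe swelling. Swollen arrays were all below the naive ones, and mild replicate 2 was the one swollen array inside the unswollen range. It changed by -0.62 ± 0.17 in severe swelling (adjusted p = 0.00476). Col20a1, a little-studied FACIT, had 74.6, 50 and 60.6 in naive, 43.8, 58.1 and 53.8 in unswollen CIA joints, 41.4, 56.9 and 32.5 in mild, 21.4, 27.2 and 10.3 in moderate and 46.1, 16.2 and 23.9 in severe swelling. It changed by -0.84 ± 0.26 (adjusted p = 0.0112), and this call was lost without naive replicate 1 (adjusted p = 0.0507) and without severe replicate 2 (0.0601). Of its other tested probe sets, 1 did not pass (-0.56, adjusted p = 0.058) and 1 fell by 1.26 (adjusted p = 0.00685). Both falls were lost when arrays were scaled on hybridization controls, with values of -0.16 for Col7a1 (adjusted p = 0.727) and -0.46 for Col20a1 (0.27). Keratinocyte genes, a sign of skin in a dissection, also moved: their summed signal was 371 to 431 in naive and 262 to 340.5 in severe arrays, and Krt5 and Krt10 fell. Krt14 (-0.37), Trp63 (0.28) and Lor (0.11) did not pass, and Krt1 and Dsp were below the filter. The part of these genes in the fall of Col7a1 was not tested.

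**Figure D3:**
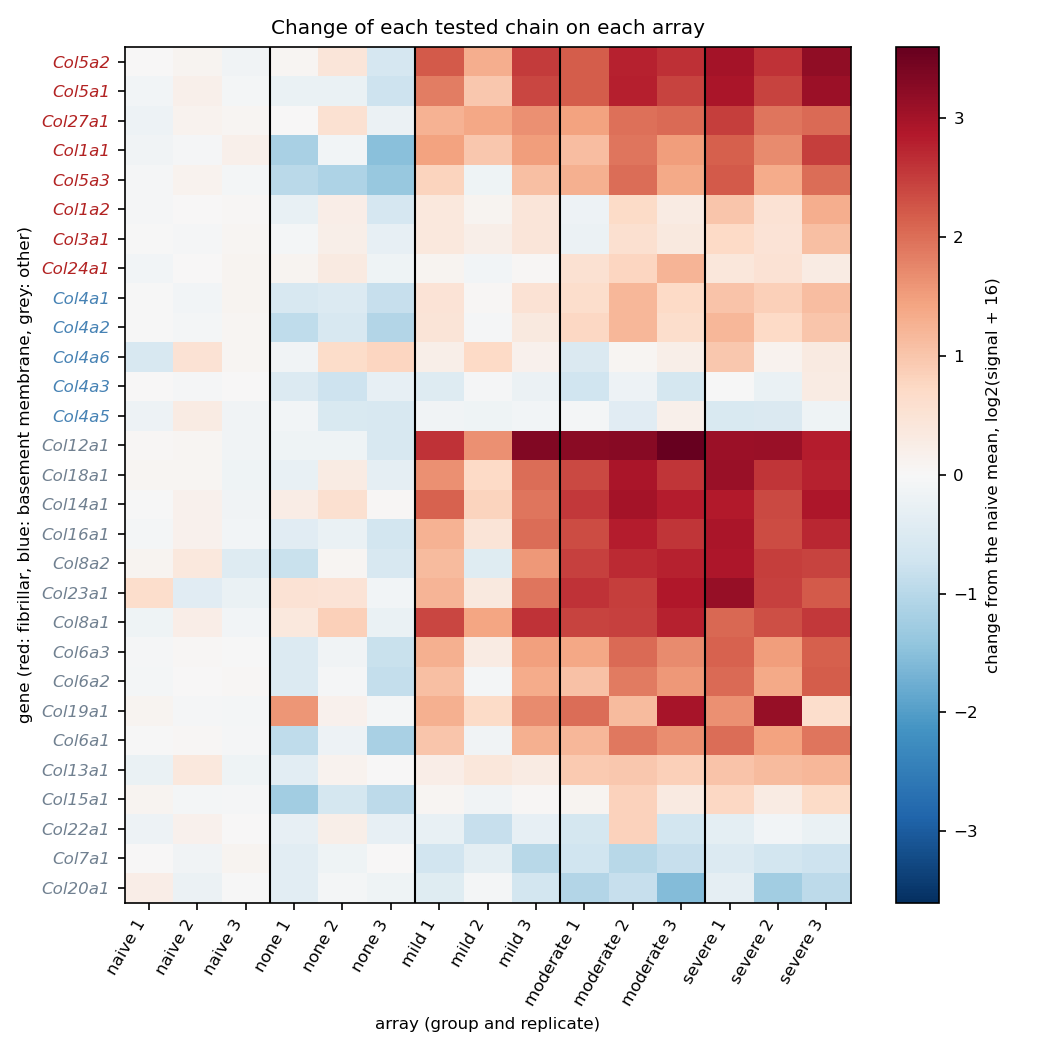
Change of each tested chain on each of the 15 arrays from the mean of the 3 naive arrays (colour, log2 of signal plus 16; rows as in the plot of fold changes, with gene names coloured by class). Red begins with the mild arrays for most fibrillar and other chains and is paler on mild replicate 2; Col7a1 and Col20a1 are blue in the swollen groups, and Col4a1, Col4a2, Col5a3 and Col15a1 are blue without swelling.

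The synovium of CIA joints without swelling had no chain that passed above naive, and several that passed below it. By count 0 chains rose and 4 fell against naive by limma, against 1.52% and 1.76% of all genes tested. At an unadjusted p under 0.05 the counts were 0 higher and 7 lower, against 8.98% and 9.91% of all genes tested. The 4 were Col4a1 (-0.63 ± 0.16, adjusted p = 0.0465), Col4a2 (-0.86 ± 0.18, adjusted p = 0.0182), Col5a3 (-1.15 ± 0.28, adjusted p = 0.0382) and Col15a1 (-0.94 ± 0.19, adjusted p = 0.0156). The signals of Col15a1, a chain of the zone between basement membrane and matrix, were 282, 248 and 254 in naive and 101, 163 and 129 without swelling. In each of the 4 chains every unswollen array lay below every naive array. The same held for Col12a1, Col16a1, Col4a3, Col5a1, Col6a1 and Col6a3, which did not pass. The share of all genes separated in this way was not counted. The other probe set of Col4a1 also fell, by 0.84 (adjusted p = 0.0179), while that of Col5a3 did not pass (-0.93, adjusted p = 0.132). Over the 29 chains 22 changes were negative, and the share over all genes was not counted. The median of the 29 was -0.21, against -0.01 over all genes tested. Unswollen replicate 3 had the lowest unswollen signal in 22 of the 29 chains. The fibrillar and other medians were 0.22 and 0.025 on unswollen replicate 2, and -0.61 and -0.31 on replicate 3. The basement membrane median was -0.49 to -0.58 on the 3 arrays.

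The calls depended on single arrays. Without naive replicate 1, naive replicate 3 or unswollen replicate 1 the count was 0, without naive replicate 2 or unswollen replicate 3 it was 1, and with hybridization control scaling it was 0, although the 4 changes stayed negative in every one of these settings. With single arrays left out the values ran from -0.70 to -0.53 for Col4a1, -0.99 to -0.75 for Col4a2, -1.24 to -1.05 for Col5a3 and -1.09 to -0.78 for Col15a1. In the fixed list of other basement membrane genes, 2 of 13 tested fell in the same comparison: Lamc1, a laminin chain, by 1.05 (adjusted p = 0.00171) and Hspg2, the perlecan gene, by 0.99 (adjusted p = 0.00171). Of the 18 folding genes tested, P4ha1, a proline hydroxylase subunit, fell by 0.68 (adjusted p = 0.0399) and Serpinh1, the collagen chaperone, by 0.91 (adjusted p = 0.0301). These 4 genes were named because the counts were small, and 1.76% of all genes tested fell. In the other lists 0 genes were called in this comparison. Those lists held 5 tested genes of procollagen processing, 4 of cross-linking, 15 fibril partners, 11 collagen receptors and 6 collagenases and gelatinases. The summed signal of the 9 endothelial genes was 1389 to 1676 without swelling and 1944 to 2053 in naive arrays, with 0 of 9 genes called by limma. The 8 pericyte and smooth muscle genes summed to 5046 to 6026 without swelling and 6464 to 6842 in naive arrays, with 0 of 7 tested genes called. The beta-actin ratio was 1.07 to 1.16 without swelling and 0.89 to 1.03 in naive arrays. None of these 3 measures overlapped between the groups. The Gapdh ratio did overlap, at 0.804 to 0.886 without swelling and 0.826 to 0.888 in naive arrays. The part of these measures in the falls was not tested.

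**Figure D4:**
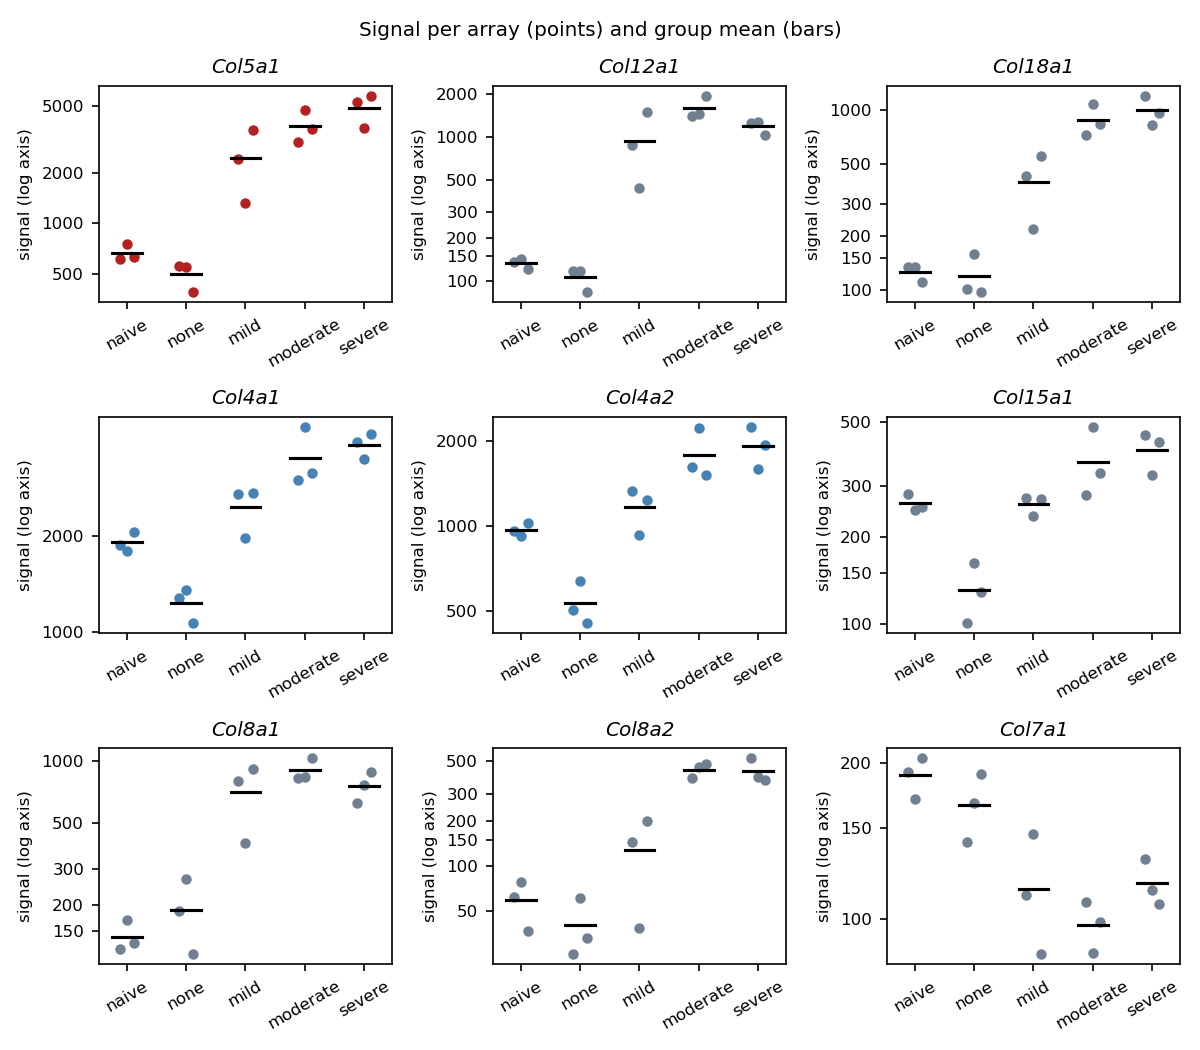
Signal (log axis, scale differing by panel) of 9 chains on each array (points) with the mean of 3 arrays (bars), by group. Col4a1, Col4a2 and Col15a1 dip in the group without swelling, to means of 1233, 531 and 131 from 1907, 966 and 261 in naive; Col8a1 averages 708 in mild and 902 in moderate swelling, and Col8a2 128 and 440.

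Between CIA joints without swelling and with mild swelling, 17 chains rose and 1, Col7a1, fell, against 23% and 15.6% of all genes tested. The rising chains were 5 of 8 fibrillar, 2 of 5 basement membrane and 10 of 16 other chains. In the same comparison 6 of 6 macrophage, 7 of 9 fibroblast, 4 of 7 chondrocyte, 3 of 9 endothelial and 3 of 7 pericyte genes rose, while 10 of 12 muscle, 4 of 5 adipocyte and 1 of 4 nerve genes fell. The part of these shifts was not tested. On the brightest probe sets, changes were largest in Col12a1 (2.82 ± 0.29, adjusted p = 1.71e-05), Col1a1 (2.25 ± 0.30, adjusted p = 7.71e-05) and Col5a1 (2.15 ± 0.28, adjusted p = 6.5e-05). The other probe set of Col1a1 rose by 1.11 (adjusted p = 0.00237). All 17 also rose between naive and severe synovium, which is a comparison with other arrays. Col1a2 (0.52, adjusted p = 0.0935) and Col3a1 (0.39, adjusted p = 0.119) did not pass on their brightest probe sets, while their other probe sets did, at 1.51 and 1.96 for Col1a2 and 2.24 for Col3a1. The brightest probe set of Col1a2 did pass under quantile normalization (1.02, adjusted p = 0.000659), with hybridization control scaling (1.30, adjusted p = 9.13e-05), with array quality weights (0.64, adjusted p = 0.004) and without unswollen replicate 2 (0.74, adjusted p = 0.0259). That of Col3a1 passed under the first 3 of these settings, at 0.90, 1.17 and 0.45. The array weights had not converged and gave mild replicate 1 a weight of 24.7, so calls under them lean on that array. Mild replicate 2 had the lowest mild signal in 16 of the 17 rising chains. Col8a2 (1.20 ± 0.38, adjusted p = 0.0219) lost its call without mild replicate 1 (adjusted p = 0.0913) or 3 (0.128) and without unswollen replicate 1 (0.084) or 3 (0.0674). The fall of Col7a1 (-0.50 ± 0.17, adjusted p = 0.0263) was lost without mild replicate 1 (0.0664) or 3 (0.145) and without unswollen replicate 2 (0.0573) or 3 (0.112), and turned to 0.20 when scaled on hybridization controls.

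Against naive, 11 chains rose and 1 fell with mild swelling (23.1% and 17% of all genes tested), and 20 rose and 2 fell with moderate swelling (30.9% and 23.8%). These comparisons and that of severe swelling share the naive arrays. Col4a1 and Col4a2 did not pass against naive with mild swelling, at 0.35 ± 0.16 (adjusted p = 0.0992) and 0.25 ± 0.18 (0.279). Both passed with moderate swelling, at 0.85 ± 0.16 (adjusted p = 0.000344) and 0.85 ± 0.18 (0.000732).

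From mild to moderate swelling 7 chains rose and 0 fell by limma, against 3.3% and 3.43% of all genes tested. At an unadjusted p under 0.05 the counts were 16 and 1, against 13% and 10.8% of all genes tested. The 7 were Col8a2 (1.88 ± 0.38), Col23a1 (1.48 ± 0.37), Col16a1 (1.35 ± 0.28), Col18a1 (1.18 ± 0.27), Col14a1 (1.17 ± 0.27), Col5a3 (0.97 ± 0.28) and Col24a1 (0.84 ± 0.19), with adjusted p from 0.0126 to 0.04997. Of these, 5 had also risen from no to mild swelling: Col14a1, Col16a1, Col18a1, Col5a3 and Col8a2. The count moved with single arrays, from 0 without moderate replicate 2 and 2 without moderate replicate 3 to 2 without mild replicate 2, 4 without mild replicate 1 and 13 without mild replicate 3. From moderate to severe swelling 0 chains passed in either direction by limma, and 0% of all genes did. At an unadjusted p under 0.05, 3 chains were higher (Col1a2, Col3a1 and Col4a3) and 1 was lower (Col24a1), against 3.43% and 2.77% of all genes tested.

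A straight line over the 4 CIA groups, scored 0 to 3, rose in 23 chains and fell in 2, against 33.6% and 22.7% of all genes tested. All 8 fibrillar chains had a rising slope, as had 2 of 5 basement membrane and 13 of 16 other chains. The steepest were Col8a2 (1.10 ± 0.12 per grade), Col12a1 (1.08 ± 0.09), Col16a1 (1.07 ± 0.09) and Col5a1 (1.04 ± 0.09). The fibrillar median was -0.18 ± 0.41 (SD, n = 3) in unswollen CIA joints, 0.97 ± 0.35 in mild, 1.53 ± 0.39 in moderate and 1.91 ± 0.34 in severe swelling. That of the other chains was -0.22 ± 0.22, 1.01 ± 0.62, 1.93 ± 0.22 and 2.04 ± 0.12. That of the basement membrane chains was -0.54 ± 0.04, 0.11 ± 0.14, 0.07 ± 0.15 and 0.47 ± 0.44. Every mild, moderate and severe array had a higher fibrillar median than any basement membrane median of its own group, and the difference between classes was not tested. The dim chains Col4a3, Col4a5 and Col4a6 weigh on the basement membrane medians.

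**Figure D5:**
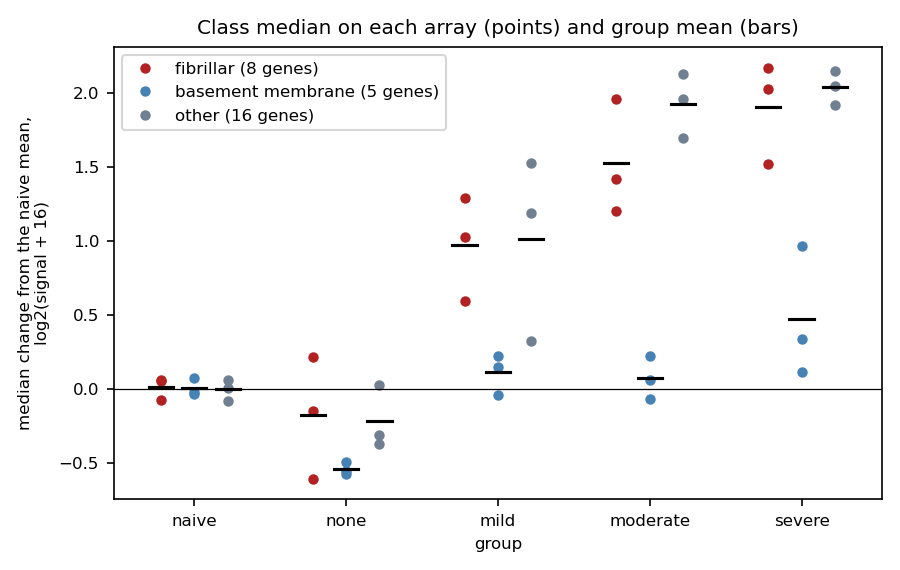
Median change from the naive mean over the tested chains of each class (y axis, log2 of signal plus 16) on each array (points), with the mean of 3 arrays (bars), by group. Fibrillar and other chains lie at 0.97 and 1.01 with mild and 1.91 and 2.04 with severe swelling, while basement membrane chains lie at -0.54 without swelling and 0.47 with severe swelling.

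Chains that assemble together were set side by side. On the brightest probe sets, Col5a1 and Col5a2 differed by 0.11 in their changes to severe swelling. Col4a1 and Col4a2 differed by 0.03, and the 3 type VI chains by at most 0.14. From no to mild swelling the ranges within these types were 0.11, 0.13 and 0.25. These ranges are smaller than the SEs of the single chains, which do not measure the spread of a difference on the same arrays. Array by array, the change of Col6a3 from naive minus that of Col6a1 was 0.217 to 0.437 in mild and 0.057 to 0.224 in severe swelling. For Col4a2 minus Col4a1 it was -0.347 to -0.102 in unswollen CIA joints, -0.155 to -0.036 in mild and -0.149 to 0.169 in severe swelling. Other probe sets gave less equal changes to severe swelling: 2.87 and 3.23 for Col5a1, 3.66 for Col5a2, 1.31 for Col4a1 and 1.98 for Col6a2. In type VIII, Col8a1 rose by 1.80 ± 0.28 to mild and then changed by 0.42 ± 0.28 (adjusted p = 0.399) to moderate swelling, whereas Col8a2 rose by 1.20 ± 0.38 to mild and then by 1.88 ± 0.38. The change of Col8a2 from naive minus that of Col8a1 was -0.77 ± 0.43 (SD, n = 3) in unswollen CIA joints, -1.38 ± 0.43 in mild, 0.08 ± 0.13 in moderate and 0.30 ± 0.49 in severe swelling. The 2 chains' steps were not tested against each other. In type I, Col1a1 minus Col1a2 was 1.01 ± 0.11 with mild and 1.18 ± 0.02 with severe swelling on the brightest probe sets, of which that of Col1a2 changed less than the gene's other probe sets.

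Genes that make, trim and bind collagen were taken from lists by role, and their counts stand against the 32.3% of all genes tested that rose and 22.9% that fell between naive and severe synovium. Of 18 tested folding and hydroxylation genes, 13 rose in severe swelling and 2 fell, with a median of 1.47. Plod2, which hydroxylates lysines for cross-links, rose by 3.89 ± 0.28, P3h3, a proline hydroxylase, by 2.29 ± 0.20 and Ppib, a folding isomerase, by 2.30 ± 0.24. Colgalt2, a galactosyltransferase (-0.61 ± 0.20), and Mia3, which loads procollagen for export (-0.49 ± 0.10), fell. Of 5 processing genes 3 rose, among them Bmp1, the C-proteinase (2.21 ± 0.28), its enhancer Pcolce (1.95 ± 0.25) and Adamts3 (1.22 ± 0.29), while Pcolce2, a second enhancer, fell by 1.59 ± 0.29. Of 4 cross-linking oxidases 3 rose: Lox (3.72 ± 0.30), Loxl3 (2.63 ± 0.26) and Loxl1 (2.27 ± 0.29).

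Of 15 fibril partners 10 rose and 0 fell by limma, with the proteoglycans Bgn (3.62 ± 0.35) and Lum (3.09 ± 0.33) and the matricellular gene Postn (3.89 ± 0.27) having the lowest p-values. Of 11 collagen receptors 8 rose, including Mrc2, which takes up collagen fragments (2.77 ± 0.26), Antxr1, which binds type VI chains (2.59 ± 0.29), and Lair1, an inhibitory receptor of leukocytes (0.70 ± 0.15). All 6 tested collagenases and gelatinases rose, with Mmp14 at 3.66 ± 0.28, Ctsk at 4.37 ± 0.35 and Mmp13 at 7.29 ± 0.73. Mmp13 had a mean naive signal of 3.67, at which the pseudocount sets much of the size. It could pass the filter only through CIA groups. Of 13 basement membrane partners 6 rose, led by Pxdn, which cross-links type IV (2.22 ± 0.20), Lamb1 (2.51 ± 0.26) and Nid2 (1.78 ± 0.21), and 2 fell, the laminin chain Lamb2 (-1.02 ± 0.20) and Sparcl1 (-0.63 ± 0.20). Their median was 0.21, against 0.11 over all genes tested and 0.47 over the type IV chains.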

How the data were processed

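RNA of 15 knee synovium samples was measured on 1 array each. The intensity values deposited by the authors are linear probe set signals made with MAS5, per the submitters' processing notes; no version is named. Their trimmed mean was 150 on every array, so they were used as scaled. Probe sets were named from the platform annotation held by GEO, in which symbols can be outdated: 34958 of 45101 had 1 gene symbol, 932 had several and 9211 none. All 36 collagen chains matched the RefSeq table by gene ID.

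Signals were taken as log2(signal + 16), 1 brightest probe set per gene. Genes above the array's 40th percentile on 3 of 15 arrays were fitted with limma 3.58.1 in R 4.3.3, as 5 group means with an intensity trend (10 residual and 5.52 prior degrees of freedom). Calls are two-sided, at a Benjamini-Hochberg adjusted p under 0.05 over 14314 genes. The steps were tested on simulated data. With 3 arrays against 3, the smallest p of an exact permutation test is 0.1. The number of arrays limits the precision.

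Every chain is accounted for. Signals on each array are given for the chains with the lowest p of an F test over the groups (5 fibrillar, 4 basement membrane, 7 other) and those that fell in severe swelling, and up to 3 genes per list by lowest p plus those called against the majority. The members and lists were chosen with earlier results of these data known. Alternatives were other pseudocounts, filters, scalings, probe set rules and variance models, a replicate block, array weights, fits of the compared groups alone and leaving out each array.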

Additional observations from a re-analysis of the deposited data

How the results depend on the processing

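Across the 28 alternatives run, the number of chains that rose was 21 to 23 (22) for severe against naive, 18 to 23 (20) for moderate against naive, 16 to 22 (17) for mild against no swelling and 21 to 23 (23) for the slope, with the reported count in brackets. Smaller counts moved. Leaving out 1 array at a time gave 1 to 2 falls for severe, 2 to 4 for moderate and 1 to 2 for mild against naive, 0 to 4 without swelling, 0 to 1 for mild against no swelling and 1 to 2 for the slope; rises gave 10 to 16 for mild against naive and 0 to 13 for moderate against mild, and the median of other chains ran from 1.86 to 2.12. A filter at the 60th percentile left 1 fall each for severe, moderate and the slope, and medians of 0.97 (basement membrane) and 2.12 (other). Without a filter there were 2 falls without swelling and a median of 1.46 for other chains. That median was 2.13 with a pseudocount of 1, 1.73 with array medians aligned and 1.71 with the mean of probe sets, which also gave 3 falls for mild against naive and 1 for the slope. Without the intensity trend 2 chains fell without swelling. With only the groups compared 0 rose from mild to moderate and 0 fell from none to mild.

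Scaling on 9 hybridization control probe sets moved the median of all genes from 0.11 to 0.53 for severe against naive, quantile normalization to 0.00 and aligned medians to -0.05; rises were 58.5%, 87.1%, 52% and 47.3% of all calls in that order. With hybridization controls the falls were 0 for severe, mild and no swelling against naive, for mild against no swelling and for the slope, and 1 for moderate; 21 rose for mild against naive and 3 from mild to moderate, and the medians were 2.48 (fibrillar) and 2.40 (other). Array quality weights gave 20 rises and 3 falls for mild against naive and 14 rises and 1 fall from mild to moderate, but their estimation stopped before it converged and gave mild replicate 1 a weight of 24.7 against 0.31 to 1.28 elsewhere.

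Signs turned in chains that did not pass. For severe against naive, Col22a1 gave 0.25 with hybridization controls and 0.079 on another probe set, and Col4a3 gave -0.12 (quantile), -0.14 (medians aligned), -0.44 (mean of probe sets) and -0.12 to 0.146 with arrays left out, below 0 without naive replicate 2 or severe replicate 3. For mild against no swelling, hybridization controls gave 0.37 for Col20a1, 0.38 for Col22a1, 0.41 for Col24a1 and 0.51 for Col4a6, array weights 0.023 for Col24a1, and the mean of probe sets -0.45 for Col4a3. Other probe sets gave -0.14 and -0.025 for Col23a1 and -0.18 for Col4a5. With arrays left out Col24a1 ran from -0.19 to 0.038 and Col4a6 from -0.35 to 0.094. Of chains that passed, Col5a3 gave -0.21 on its other probe set and Col7a1 0.20 with hybridization controls. The causes were not tested.

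The replicate number as a block lowered the falls without swelling from 4 to 2 and changed the rises from mild to moderate from 7 to 6. Of 30 pairs of arrays with the same number, 5 had deviations correlated above 0.1 (-0.51 to 0.33), so the numbers were not taken as pairs.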
